A study of Mus musculus with 19 samples.

Results

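Splicing factors and heterogeneous nuclear ribonucleoproteins (hnRNPs) were followed in cells sorted from mouse trunk and sciatic nerve between E9.5 and birth. Members were all probe sets with a single annotated symbol belonging to the Srsf, Sf3a, Sf3b, Snrp, Hnrnp, U2af, Rbm, Prpf, Ptbp, Elavl, Cirbp, Celf or Qk names. They comprised 103 probe sets of 77 genes, out of 12488 probe sets, of which 10833 carried a single symbol and stood for 8251 genes. A filter on dim probe sets kept 99 members of 75 genes among 10414 probe sets tested. The 4 members that it removed were the probe sets of Elavl2 and Elavl4, probe set 101022_at of Srsf1 and probe set 161335_r_at of Snrpb, each below the floor on all 19 arrays. Of the 103 members, 22 had an identifier ending in _f_at (11), _r_at (8) or _s_at (3). Of these suffixes, _f_at and _s_at mark probes shared with related sequences. More than 1 probe set stood for 23 genes.

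Green fluorescent cells were sorted by flow cytometry from mice carrying a reporter driven by a glial promoter, which per the labels marks neural crest stem cells and later glia. All groups carried this reporter and no group received a treatment. The groups were trunk at E9.5 with 3 arrays, and sciatic nerve with 3 arrays each at E12, at E14, at E18 and on the day of birth (P0) and 4 arrays at E16. E9.5 therefore differs from the later stages in body region as well as in age, and the 2 cannot be told apart. Each RNA was amplified by 2 rounds of in vitro transcription and hybridized to a 1-colour Affymetrix array. The value per probe set is the authors' model-based expression index, a linear intensity, here floored at 68.5 and taken to log2 for tests. Nothing in the labels says whether arrays of a stage came from separate litters, so the p-values measure the spread between these samples, which may be partly technical.

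In splicing, U1 and U2 small nuclear ribonucleoproteins (snRNPs), built on rings of Sm proteins, recognise the ends of the intron, with U2AF and the SF3A and SF3B complexes at the branch point and the 3′ splice site. PRPF proteins serve mainly in the tri-snRNP and in activation of the spliceosome. SR proteins bind exons and mostly favour their inclusion, whereas hnRNPs often oppose it. Quaking, PTBP, CELF and ELAVL proteins set tissue-specific splicing and mRNA stability, and Quaking is known for its part in myelination. Cirbp encodes a cold-inducible RNA-binding protein whose mRNA is known to increase when mammalian cells are cooled mildly.

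Promoter windows from RefSeq (mouse assembly GRCm38.p6), of 250 bases up to the gene start, were matched by gene for 67 of the 77 member genes, which had 94 windows. Those shown belong to Cirbp, Qk, Rbm14 and Snrpe. Cirbp was the one member called higher at P0 than at E18. One probe set of Qk was higher on every nerve array than on any trunk array. On their _f_at probe sets, Rbm14 and Snrpe were called lower at P0 than at E9.5 in every alternative setting that kept those probe sets. Capitals mark CCAAT, its reverse complement ATTGG, and the octamer TCCCCGCC, which has been reported as a mild-cold element of the Cirbp promoter; both strands were searched. In the Rbm14 window a CCAAT and an ATTGG overlap.
Cirbp, chr10:80167589-80167838, plus strand: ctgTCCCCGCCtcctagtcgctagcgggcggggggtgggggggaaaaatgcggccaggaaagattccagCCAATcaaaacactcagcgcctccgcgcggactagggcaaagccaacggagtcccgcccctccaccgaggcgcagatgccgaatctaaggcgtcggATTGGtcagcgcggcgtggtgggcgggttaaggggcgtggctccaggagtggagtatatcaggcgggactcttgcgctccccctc
Qk, chr17:10319362-10319611, minus strand: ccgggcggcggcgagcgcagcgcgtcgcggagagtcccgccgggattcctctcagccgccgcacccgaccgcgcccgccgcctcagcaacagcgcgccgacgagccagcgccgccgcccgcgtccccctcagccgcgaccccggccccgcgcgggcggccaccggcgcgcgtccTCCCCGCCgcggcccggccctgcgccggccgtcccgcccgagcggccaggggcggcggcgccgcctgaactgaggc
Rbm14, chr19:4811635-4811884, minus strand: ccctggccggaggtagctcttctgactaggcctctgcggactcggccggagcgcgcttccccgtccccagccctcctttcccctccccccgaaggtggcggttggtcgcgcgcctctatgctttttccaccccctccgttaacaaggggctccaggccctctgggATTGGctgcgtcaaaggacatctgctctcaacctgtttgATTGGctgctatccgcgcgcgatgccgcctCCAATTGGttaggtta
Snrpe, chr1:133610281-133610530, minus strand: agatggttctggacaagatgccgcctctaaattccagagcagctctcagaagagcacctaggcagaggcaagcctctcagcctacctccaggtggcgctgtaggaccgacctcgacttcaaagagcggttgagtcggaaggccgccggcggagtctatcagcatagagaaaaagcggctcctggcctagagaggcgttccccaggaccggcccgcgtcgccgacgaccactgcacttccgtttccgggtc
CCAAT stood on either strand in 51.1% of member windows, against 34.6% of the 8408 windows of genes on the array and 33.8% of all 32851 windows. The octamer TCCCCGCC was in 7.45% of member windows, against 7.5% of windows of genes on the array and 4.64% of all windows. The ETS core CCGGAAGT was in 9.57% of member windows (9 windows), against 4.85% of windows of genes on the array. TATAAA was in 7.45% of member windows and 8.93% of windows of genes on the array. The Snrpe window held none of the motifs searched, and a second Cirbp window, further into the gene, held none either. A match describes letters in a window and not a bound site.

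Some arrays stood apart from the others. The GAPDH 3′/5′ ratio, taken from control probe sets at the ends of that transcript, grows when RNA is degraded or copied short. It ranged from 2.33 to 3.41 at E9.5, 3.18 to 4.53 at E12, 5.1 to 6.23 at E14, 3.84 to 9.12 at E16, 4.11 to 4.83 at E18 and 4.69 to 7.69 at P0. Replicates 1 and 2 of E16 had 5.8 and 9.12, against 4.26 and 3.84 in the other two, and replicates 1 and 3 of P0 had 7.69 and 6.8, against 4.69 in replicate 4. The lowest rank correlation between arrays of a stage was 0.846 at P0 and 0.896 at E16, and at least 0.934 elsewhere. Counts of called members by role group in P0 against E9.5 are given with and without these 4 arrays.

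Markers of other cell types also moved with stage. Macrophage markers were called higher at E12 than at E9.5 for 8 of 15 tested probe sets, with a summed index over 22 probe sets of 3918 to 8186 at E12 against 2185 to 2611 at E9.5, and 2290 to 2493 at P0. Fibroblast markers were called higher at P0 than at E9.5 for 8 of 21 tested probe sets and lower for 4, and summed to 29016 to 39912 over 22 probe sets at P0, against 6050 to 7441 at E9.5. Erythroid markers were called lower at P0 than at E12 for 3 of 8 tested probe sets, and summed to 1431 to 1751 over 9 probe sets at P0, against 2794 to 10265 at E12 and 1519 to 1803 at E9.5. Neuron markers were called higher at P0 than at E9.5 for 1 of 17 tested probe sets and lower for 1. Their sum changed little, at 3702 to 4057 over 24 probe sets at P0 against 3584 to 3994 at E9.5. Isl1, Map2, Scg2 and Syt1 were below the floor on every array. The macrophage genes Fcer1g and Lyz2 were below the floor on every array too. The crest and Schwann lineage markers, which include Sox10 and Erbb3, had no gene below the floor throughout. They were called higher at P0 than at E9.5 for 3 of 17 tested probe sets and lower for 6, with a mean log2 index of 8.43 against 8.32, and summed to 14068 to 24074 over 18 probe sets at P0 against 8471 to 9774 at E9.5. The part of these cells in the results was not tested, and in sorted bulk RNA a change in the share of a cell type and a change in RNA per cell cannot be told apart.

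As a whole, the members were highest in the E9.5 trunk and lowest in the newborn nerve. The mean log2 index over the 99 members was 9.5 at E9.5, 9.21 at E12, 9.08 at E14, 8.97 in E16 nerve, 8.95 at E18 and 8.74 at P0. The stage of highest mean was E9.5 for 65 of 99 members (65.7%, against 25.1% of all probe sets tested), and the stage of lowest mean was P0 for 55 of 99 (55.6%, against 19.5%). The members called by the moderated F-test over the 6 stages numbered 42 of 99, or 42.4%, against 29% of all probe sets tested. Over the 5 nerve stages alone 10 of 99 were called, or 10.1%, below the 13.1% of all probe sets tested.

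The array means were less even than the stage means. The 3 P0 arrays averaged 8.52, 8.5 and 9.19 over the members in replicates 1, 3 and 4, and replicate 4 lay inside the E12 range of 9.1 to 9.34. The 4 E16 arrays averaged 8.79, 8.69, 9.28 and 9.13. The level over all probe sets tested was uneven too, at 7.98 to 8.28 at P0 and 8.02 to 8.22 at E16, against 8.19 to 8.22 at E12. The median index was 207 in replicate 4 of P0, against 176 and 174 in replicates 1 and 3. Within P0 and within E16 the arrays of high GAPDH ratio were the low ones, most plainly among SR proteins, hnRNPs and RBM proteins. Between stages this did not always hold. The E14 arrays, at ratios of 5.1 to 6.23, averaged 9.04 to 9.11 over the members. Those of E18, at ratios of 4.11 to 4.83, averaged 8.83 to 9.09. RBM proteins and the PTBP, ELAVL, CELF and Quaking group had E12 stage means close to those of E9.5, while SR proteins had their widest step there, at 9.5 in E12 nerve against 10.22 in E9.5 trunk.

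**Figure D1:**
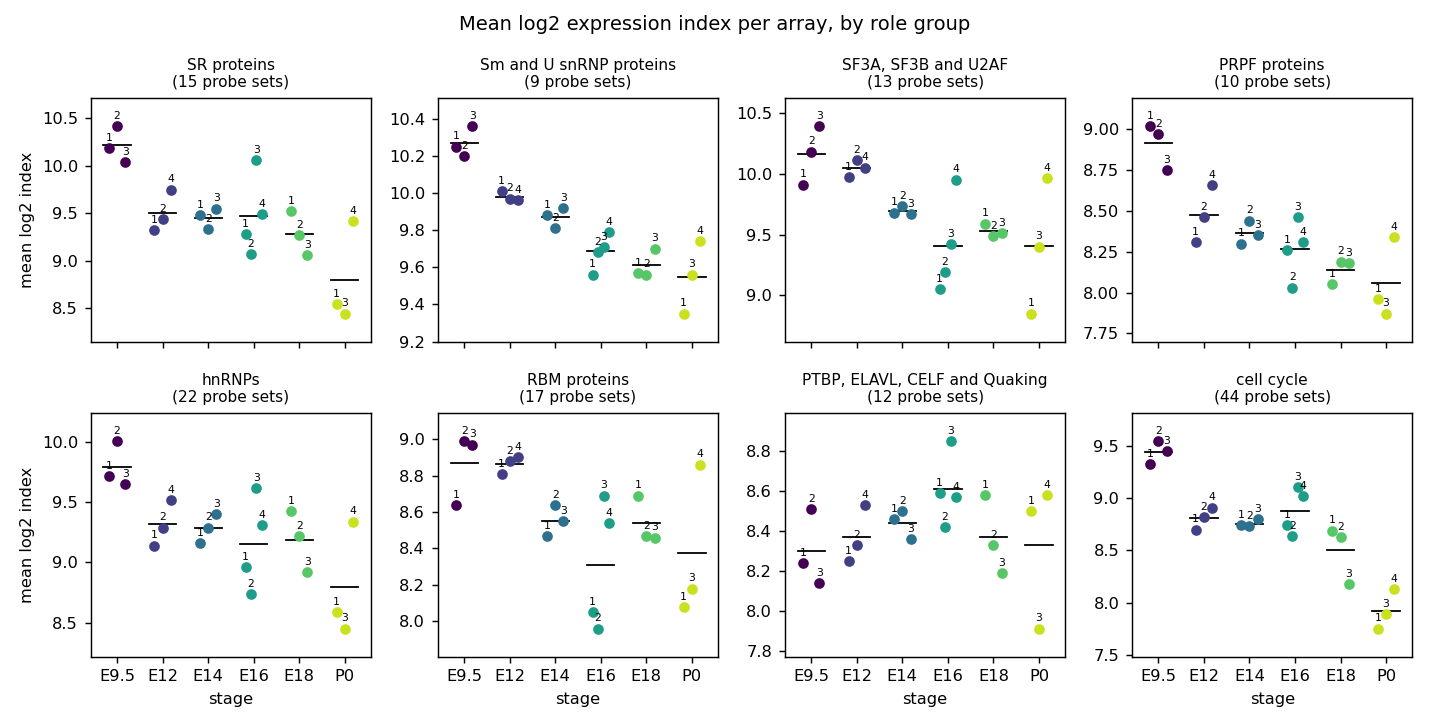
Mean log2 expression index of each role group (vertical axis) on each of the 19 arrays by stage (horizontal axis). Points are arrays with their replicate number and short lines are stage means. SR protein means run between 10.04 and 10.42 at E9.5 and between 8.44 and 9.42 at P0. The last panel shows 44 cell cycle probe sets. Vertical scales differ between panels.

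P0 nerve was set against E9.5 trunk, the ends of the course. Here 55 of 99 members were called, 52 lower (45 genes) and 3 higher (3 genes). Of all probe sets tested 28% were called, 15.9% lower and 12.1% higher, so the members called lower, at 52.5%, were over the background share, and those called higher, at 3.03%, were under it. Their median log2 change was -0.77, against 0.03 over all probe sets tested. The calls come from limma with Benjamini-Hochberg adjustment over all probe sets tested. With the GAPDH ratio as a covariate, 10 members were called (4 lower, 6 higher) and the median was -0.25. Every P0 array (4.69 to 7.69) had a higher ratio than every E9.5 array (2.33 to 3.41). In this comparison, also by role group below, the covariate therefore follows stage, and the 2 cannot be fully told apart. Without replicates 1 and 3 of P0 and 1 and 2 of E16, 12 members were called (8 lower, 4 higher) and the median was -0.42. Counts under these 2 settings, here and in later paragraphs, are given without the share called and the median of all probe sets under them. They therefore do not show whether the members lost more calls than other probe sets. Within lots, with 1 array of each stage, the members' median was -0.87 in lot 1 and -0.93 in lot 3. The P0 arrays of those lots were replicates 1 and 3, which stood apart by GAPDH ratio. Replicate 4 of P0 had no E9.5 array of its own lot. Set against E9.5 replicate 1 (ratios of 4.69 and 3.41), it had a members' median of -0.3, against 0.04 over all probe sets. That pair of arrays has no replicate check.

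SR proteins held the highest share of calls, with 13 of 15 probe sets lower at P0 than at E9.5 and a median log2 change of -1.48. Probe set 104586_at of Srsf1, the founding SR protein, read 126, 85.2 and 317 at P0 against 866, 1107 and 627 at E9.5, a log2 change of -2.49 (SE 0.5, adjusted p = 0.0012, limma). The groups did not overlap, and the highest P0 array was replicate 4. The other 2 tested Srsf1 probe sets were also called lower, at -2.37 and -1.48 on the log2 scale, with P0 arrays at the floor.
Srsf10, a splicing repressor when dephosphorylated, read 50.7, 25.7 and 234 at P0 on probe set 98048_at, against 735, 1221 and 573 at E9.5. With 2 P0 arrays at the floor the 7.76-fold difference is a lower bound (adjusted p = 0.0021, limma). Its other probe set, 102046_at, fell 2.85-fold. Srsf3, the smallest SR protein and an adaptor for mRNA export, read 125, 149 and 330 at P0 on probe set 101003_at against 621, 661 and 594 at E9.5, which was 3.41-fold lower. Its other probe set, 101004_f_at, fell only 1.37-fold. Srsf2, a marker of nuclear speckles, behaved likewise, 3.47-fold lower on probe set 95791_s_at and 1.35-fold lower on 94017_s_at. Without the 4 arrays that stood apart, 1 of 15 SR probe sets was called lower and the group median was -0.53, and with the GAPDH covariate 1 of 15 was called lower with a median of -0.52.

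snRNP proteins were called lower for 6 of 9 probe sets (median log2 change -0.77), for 2 of 9 with the GAPDH covariate (-0.59) and for 2 of 9 without the 4 arrays that stood apart (-0.47). The Sm ring protein gene Snrpe (97200_f_at) read 2155, 2869 and 2697 at P0 against 5779, 5616 and 5293 at E9.5, 2.18-fold lower (adjusted p = 0.00012, limma). Its stage means were successively lower, with 4934, 5015 and 4977 at E12, 4759, 4090 and 4515 at E14, 3608, 4930, 2786 and 3754 in E16 nerve, and 2826, 3108 and 3258 at E18; the single steps between neighbouring nerve stages were not called. Snrpg, of the same ring, was 2.67-fold lower, and Snrpa1, a U2 snRNP protein, 3.49-fold lower, at 352, 217 and 658 at P0 against 1003, 1425 and 1488 at E9.5. Snrpc, of the U1 snRNP, was 1.43-fold lower, a call that held in 10 of 20 alternatives (adjusted p = 0.58 with the GAPDH covariate, limma). All 3 P0 arrays of Snrpb2 probe set 92839_f_at were below the floor, which gave a fold of at least 1.71, while its probe set 162026_r_at was not called. Snrpb and the probe set annotated to the pseudogene Snrp1c-ps2 were not called either.

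Of SF3A, SF3B and U2AF, 6 of 13 probe sets were called lower, with a median log2 change of -0.56. With the GAPDH covariate 0 of 13 were called by limma (1 lower at an unadjusted p under 0.05, median -0.13), and without the 4 arrays that stood apart 1 was called lower (median -0.16). Sf3a3, a subunit that helps U2 snRNP mature, read 160, 199 and 394 at P0 against 781, 1049 and 1126 at E9.5, 4.19-fold lower (adjusted p = 0.00016, limma). Sf3b3 and Sf3a1 were 3.7-fold and 3.61-fold lower. U2af1, whose protein reads the AG at the end of the intron, had 229, 745 and 1264 at P0 against 1330, 2002 and 1808 at E9.5, 2.82-fold lower at adjusted p = 0.045 (limma). The P0 values spread widely, and the highest lay just under the lowest E9.5 array. The call held in 9 of 20 alternatives, and with the GAPDH covariate the log2 change was 0.18 (adjusted p = 0.89, limma), of the other sign.
The 2 probe sets of Sf3b1, which grips the branch point, were called in different comparisons. Probe set 97808_at read 983, 1157 and 957 at E9.5, 2057, 2322 and 2075 at E12, and 610, 999 and 1672 at P0. It was called higher at E12 than at E9.5 (2.09-fold) and lower at P0 than at E12 (2.13-fold). Probe set 96777_at was called lower at P0 than at E9.5 (1.74-fold), with overlapping arrays, and was not called in the other 2 comparisons. The 2 Sf3a2 probe sets had fitted changes of opposite sign in P0 against E9.5.

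Of the PRPF probe sets, 5 of 10 were called lower. Prpf4b, a kinase of the spliceosome, had 2 of 3 P0 arrays at the floor, at 39.4, 12.7 and 207 at P0 against 466, 648 and 310 at E9.5. Prpf19, a ubiquitin ligase that activates the spliceosome, read 454, 439 and 1188 at P0 against 1858, 1695 and 1306 at E9.5 on probe set 97395_at, 2.59-fold lower. Prpf31, of the tri-snRNP, and Prpf38a were 2.08-fold and 2.11-fold lower. Prpf8, the core of the spliceosome, and Prpf6 were not called, with 921, 778 and 1040 at P0 against 937, 1540 and 1453 at E9.5 for Prpf8. With the GAPDH covariate 0 of 10 were called by limma (0 at an unadjusted p under 0.05 and lower), with a median log2 change of -0.44, against -0.82 without the covariate. Without the 4 arrays that stood apart 1 of 10 was called lower (median -0.48).

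hnRNPs were called lower for 13 of 22 probe sets, with a median log2 change of -1.09, and none was called higher. Hnrnpc, which binds uridine tracts, read 15.7, 24 and 106 at P0 against 308, 362 and 197 at E9.5, a lower bound of 3.54-fold since 2 P0 arrays were at the floor. Hnrnph3 read 225, 281 and 589 at P0 against 985, 1183 and 954 at E9.5, 3.1-fold lower (adjusted p = 0.0031, limma). In both genes replicate 4 was the highest P0 array.
Hnrnpll, known from CD45 splicing in lymphocytes, was 2.62-fold lower and Hnrnpm 2.48-fold lower. Hnrnpk, a cytosine-tract binder, had 706, 876 and 1636 at P0 against 2313, 2645 and 1740 at E9.5. Hnrnpab was a case in which the 3 P0 arrays lay close together, at 362, 253 and 371 against 593, 782 and 648 at E9.5, 2.07-fold lower on probe set 94896_at (adjusted p = 0.00046, limma). Hnrnpa1 was not called (843, 437 and 1003 at P0 against 929, 1319 and 959 at E9.5). Hnrnpu disagreed with itself: 93761_at was called 1.71-fold lower, while 160316_at, which ran from 67.5 to 717 within the E16 arrays alone, was not called. With the GAPDH covariate 1 hnRNP probe set was called higher and 0 lower by limma (5 lower at an unadjusted p under 0.05), and the group median was -0.21. Without the 4 arrays that stood apart 2 of 22 were called lower (median -0.45).

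RBM proteins were called lower for 5 of 17 probe sets (median log2 change -0.42). With the GAPDH covariate 1 was called lower and 2 higher (median -0.02), and without the 4 arrays that stood apart 1 was called lower (median -0.07). Rbm14, a coactivator that sits in paraspeckles, had the smallest adjusted p of any member on probe set 100138_f_at. It read 1664, 2032 and 1866 at E9.5, 878, 1031 and 1020 at E12, 789, 806 and 798 at E14, 819, 802, 851 and 907 in E16 nerve, 800, 734 and 647 at E18, and 503, 688 and 692 at P0. The 3 E9.5 arrays lay above all others, and P0 was 2.97-fold lower than E9.5 (log2 change -1.57, SE 0.14, adjusted p = 6.1e-07, limma), -1.31 with the GAPDH covariate and -1.42 without the arrays that stood apart. The second Rbm14 probe set, 162067_at, did not follow, at 205, 209 and 182 at P0 against 209, 188 and 208 at E9.5. Rbm8a, the Y14 protein of the exon junction complex, was 2.36-fold lower at P0 than at E9.5, and Rbmxl1, a retrogene copy of Rbmx, 3.44-fold lower. Neither Rbm39 nor Rbmx was called on either of its probe sets.

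**Figure D2:**
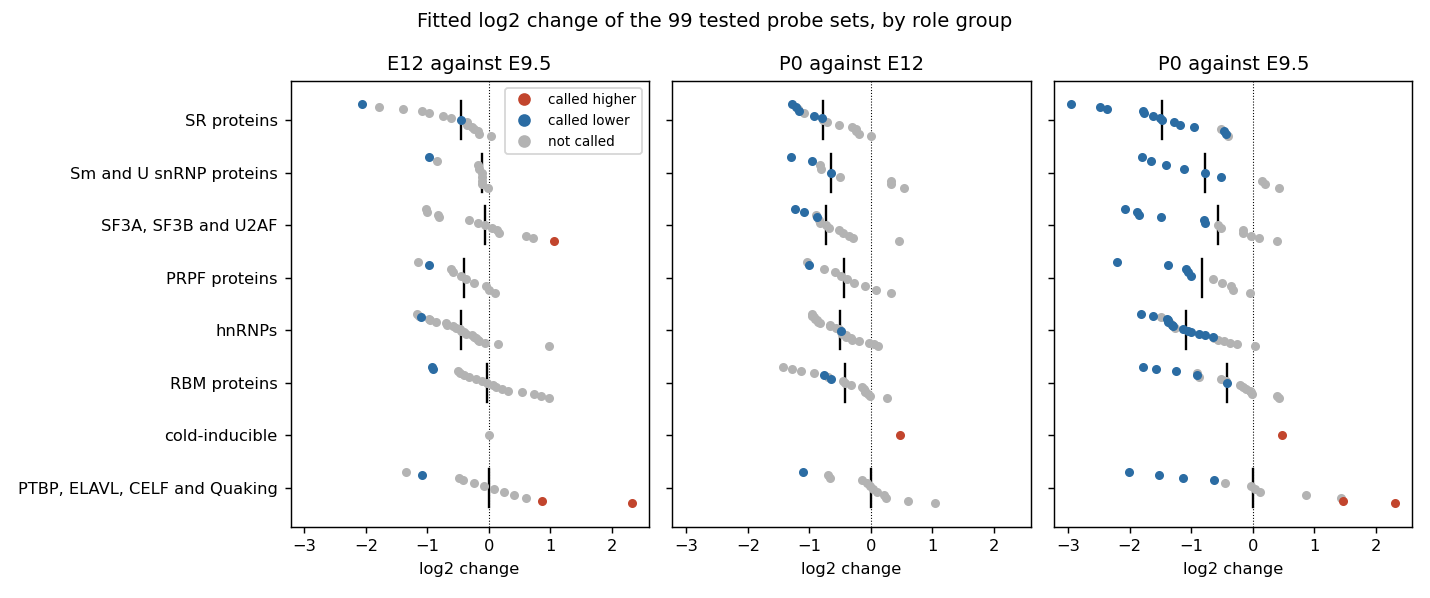
Fitted log2 change (horizontal axis) of each of the 99 tested probe sets in 3 comparisons, by role group (vertical axis). Each point is a probe set, coloured by its call, and vertical lines are group medians. In P0 against E9.5 every SR probe set lies below 0, whereas the PTBP, ELAVL, CELF and Quaking group has a median of 0 with members called in both directions.

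Regulators of tissue-specific splicing were called in both directions. Of 12 probe sets of the PTBP, ELAVL, CELF and Quaking group, 2 were called higher and 4 lower at P0 than at E9.5. By limma 3 were called higher and 0 lower with the GAPDH covariate (1 lower at an unadjusted p under 0.05), and likewise 3 and 0 without the 4 arrays that stood apart (4 lower at an unadjusted p under 0.05). Celf2 probe set 97255_at read 109, 129 and 78.3 at E9.5, 440, 491 and 640 at E12, 885, 819 and 1000 at E14, 903, 672, 1698 and 978 in E16 nerve, 1030, 883 and 838 at E18, and 404, 299 and 1108 at P0. Every nerve array lay above every trunk array, and P0 was 4.96-fold higher than E9.5 (adjusted p = 0.00027, limma). The second Celf2 probe set, 93892_at, was not called, at 111, 82.2 and 223 at P0 against 57.7, 53 and 73.1 at E9.5, around the floor. It was called higher with the GAPDH covariate (adjusted p = 0.0032) and without the 4 arrays that stood apart (adjusted p = 0.0025, limma).
Qk probe set 160726_at read 738, 1005 and 847 at E9.5, 1501, 1338 and 1860 at E12, 2458, 2709 and 2838 at E14, 2408, 2231, 2918 and 2513 in E16 nerve, 3598, 3500 and 2514 at E18, and 1859, 2190 and 3290 at P0. It was called 1.81-fold higher at E12 than at E9.5 and 2.77-fold higher at P0 than at E9.5 (adjusted p = 6.1e-05, limma). The other Qk probe set, 95096_at, was flat, at 4340, 2214 and 3600 at P0 against 3240, 3601 and 2794 at E9.5. Where the 2 probe sets lie on the Quaking transcripts, which have alternative 3′ ends, was not analysed here.
Ptbp2, the neural polypyrimidine tract binder, read 192, 110 and 299 at P0 against 633, 1098 and 601 at E9.5 on probe set 94088_at, 4.04-fold lower. Elavl1, the widely expressed HuR protein, read 375, 382 and 972 at P0 against 1313, 1644 and 1526 at E9.5, 2.87-fold lower. The neuronal Elavl3 was flat, at 214, 191 and 174 at P0 against 206, 200 and 182 at E9.5, and Elavl2 and Elavl4 stayed below the floor. Celf4 (93147_f_at) stood at 65.1 to 129 on 16 arrays but at 1210 and 811 on replicates 1 and 2 of E16 and at 1351 on replicate 1 of P0. These 3 arrays came from lot 1, whose other arrays read 74 to 129, and Celf4 was not called in any pairwise comparison.

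**Figure D3:**
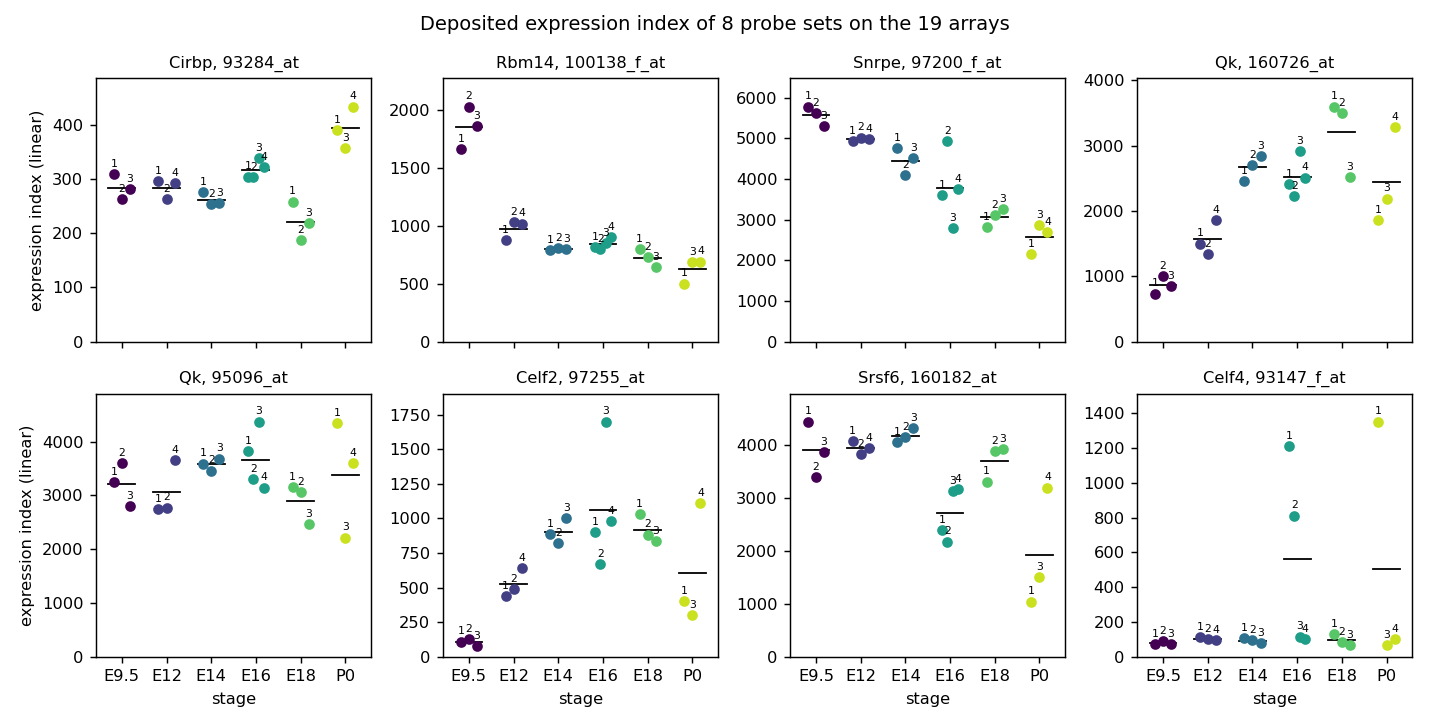
Deposited expression index on a linear scale from 0 (vertical axis) of 8 probe sets on the 19 arrays by stage (horizontal axis). Points are arrays with replicate numbers and short lines are stage means. The P0 arrays of Cirbp lie at 357 to 433, above all earlier arrays, and the 2 Qk probe sets do not follow each other.

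The step from trunk to nerve was set by E12 against E9.5. Here 11 of 99 members were called (11.1%, against 14.1% of all probe sets tested), 3 higher and 8 lower. The count was 27 without the 4 arrays that stood apart, where SR proteins had 7 of 15 called lower against 2 with them. None of those arrays is of E12 or E9.5. The fitted changes were therefore the same (SR median -0.46 in both fits), and only the shared estimate of the spread moved. The count was 14 (9 higher, 5 lower) with the GAPDH covariate. It was 4 when E9.5 replicate 2, E12 replicate 1 or E12 replicate 2 was left out. In the main fit all probe sets were called higher in 9.7% and lower in 4.41%. The members' median log2 change was -0.25, against 0.01 over all probe sets tested, and 74 of 99 had a fitted change below 0. The members called higher were Celf2 (5.02-fold), Sf3b1 (2.09-fold) and Qk (1.81-fold). Those called lower included Srsf1 (160539_at, at 40.4, 27.3 and 137 at E12 against 283, 793 and 213 at E9.5), Hnrnpab (282, 277 and 391 against 593, 782 and 648) and Rbm14 (1.9-fold). Prpf31, Rbm8a, Snrpa1 and Srsf3 were 1.96-fold, 1.88-fold, 1.97-fold and 1.37-fold lower, and Ptbp2 (160374_r_at) had 2 of 3 E12 arrays at the floor, for a lower bound of 2.11-fold. GAPDH ratios overlapped between these stages: replicate 4 of E12 had 3.18 and replicate 1 of E9.5 had 3.41. Between those 2 arrays 61 of 99 members were lower at E12, with a median of -0.16, against 43.7% of all probe sets lower, and 12 of 15 SR probe sets were lower. That pair of arrays has no replicate check. Within lots 1 and 2, with 1 array of each stage, the members' median was -0.31 and -0.3.

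Between neighbouring nerve stages before birth no member was called. In E14 against E12 the count was 0 of 99 (all probe sets 2.09%), with 6 members (6.06%) at an unadjusted p under 0.05, against 10.9% of all probe sets. In E16 against E14 it was 0 (1.69%), with 9 (9.09%, against 11.2% of all) at an unadjusted p under 0.05. In E18 against E16 it was 0 (0.0768%), with 5 at that level (5.05%, against 8.07%). The counts are from limma.

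Across birth, Cirbp was the only member called in P0 against E18 (1 of 99, against 0.125% of all probe sets tested, 0.0384% higher), and 13 members (13.1%) were at an unadjusted p under 0.05, near the 11.7% of all probe sets. Cirbp (93284_at) read 309, 262 and 281 at E9.5, 296, 263 and 292 at E12, 275, 254 and 255 at E14, 304, 303, 338 and 321 in E16 nerve, 258, 187 and 218 at E18, and 390, 357 and 433 at P0. The lowest P0 array, at 357, lay above the highest of the 16 earlier arrays, at 338; no other member had all P0 arrays above all others, and 0.595% of all probe sets tested did. P0 was 1.79-fold higher than E18 (log2 change 0.84, SE 0.13, adjusted p = 0.027, limma). E18 was the stage of lowest Cirbp mean, at 221 ± 35.3 (SD, n = 3) against 317 ± 16.5 at E16 (n = 4), a log2 change of -0.53 that was not called (adjusted p = 0.26, limma). Against E12 and E9.5, which both averaged 284, the P0 mean of 393 was 1.39-fold and 1.38-fold higher (adjusted p = 0.024 and 0.015, limma). The call against E12 was lost in 8 of 20 alternatives, among them the GAPDH covariate (adjusted p = 0.063), and that against E9.5 in 4 of 20 (0.12 with that covariate, limma). The P0 arrays enter all 3 comparisons, so these calls are not independent.
Cirbp was as high in P0 replicate 4, of low GAPDH ratio, as in the other P0 arrays, at 433 against 390 and 357. With the GAPDH covariate the log2 change from E18 was 0.86 (adjusted p = 0.048), and without the 4 arrays that stood apart it was 0.98 (adjusted p = 0.037, limma). Within array lots, P0 exceeded E18 by 0.6 in lot 1 and 0.72 in lot 3 on the log2 scale, with 1 array of each stage in each. The call against E18 was lost in 4 of 20 alternatives: without the lot 1 arrays of E16 and P0, without P0 replicate 1, without E18 replicate 2, and in a fit of the 2 stages alone. The largest adjusted p among the 20 was 0.62.

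P0 was also set against E12, at opposite ends of the nerve series. Of 99 members, 16 were called lower and 1, Cirbp, higher; 11.8% of all probe sets tested were called lower and 16.4% in either direction, so the members' 17.2% was near the background. The members' median log2 change was -0.5, against -0.02 over all probe sets tested, and within lots it was -0.76 in lot 1 and -0.14 in lot 4. Snrpg was 2.46-fold lower (778, 841 and 1391 at P0 against 2671, 2363 and 2156 at E12) and Snrpe 1.95-fold lower (2155, 2869 and 2697 against 4934, 5015 and 4977). The Snrpe groups were widely apart, and its call held in all 19 alternatives that kept its probe set.
Srsf6 was 2.31-fold lower, at 1045, 1502 and 3199 at P0 against 4075, 3837 and 3943 at E12, where replicate 4 of P0 lay much closer to E12 than the other P0 arrays did. Sf3a3 was 2.35-fold lower, Srsf3 2.24-fold, Elavl1 2.14-fold, Prpf38b 2.01-fold, Sf3b6, a branch-point contact, 1.83-fold, and Srsf11 1.74-fold. Replicate 4 of P0, at a GAPDH ratio of 4.69, set against replicate 1 of E12, at 4.53, had 36 members lower and 60 higher, with a median of 0.09. Over all probe sets 42.1% were lower, with a median of 0.04, so the members' 36.4% lower was near the background. This pair, with 1 array of each stage, has no replicate check either. Without P0 replicate 4, 43 members were called; without replicate 1 or 3 of P0, 6 each. With the GAPDH covariate 4 were called (3 lower), and without the 4 arrays that stood apart 2 were (1 lower).

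**Figure D4:**
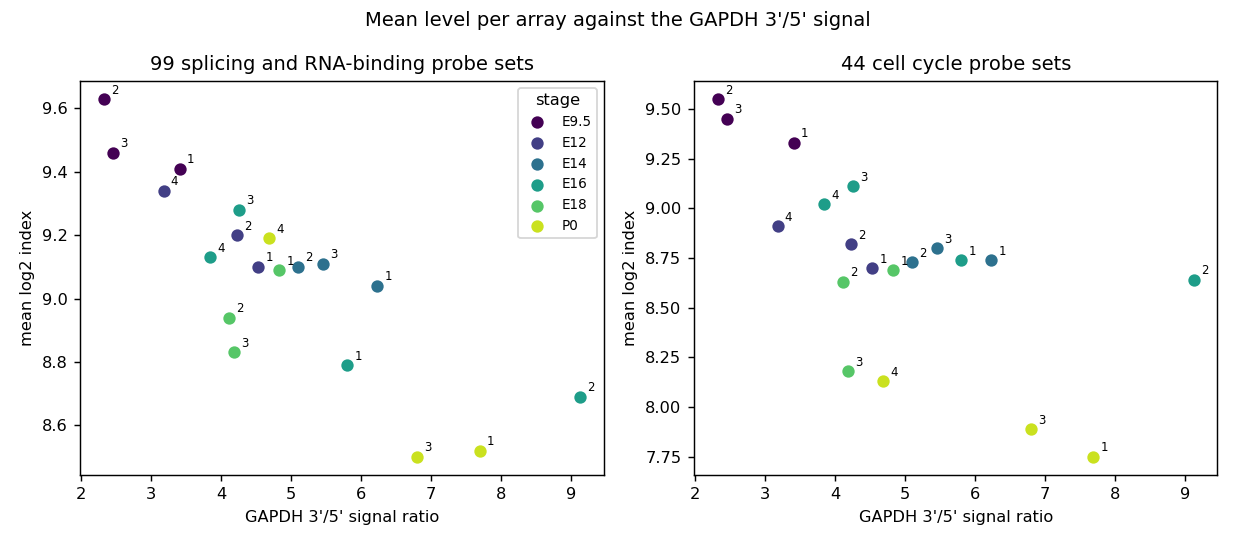
Mean log2 index per array (vertical axes) of the 99 members and of 44 cell cycle probe sets, against the GAPDH 3′/5′ signal ratio of the same array (horizontal axis), coloured by stage and numbered by replicate. Replicate 4 of P0, at a ratio of 4.69, has a member mean of 9.19 and a cell cycle mean of 8.13.

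Cell cycle genes fell over the same course. Of 44 tested probe sets outside the members, 33 were called lower and 1 higher at P0 than at E9.5, with a median log2 change of -1.49, and 21 were called lower at P0 than at E12. Their mean log2 index was 9.44 at E9.5, 8.81 at E12, 8.76 at E14, 8.88 in E16 nerve, 8.5 at E18 and 7.92 at P0. The P0 arrays stood at 7.75, 7.89 and 8.13, all below the lowest earlier array at 8.18. In P0 replicate 4 cell cycle genes were thus below every earlier array while the members' mean of 9.19 was within the E12 range. Mcm3, a subunit of the replicative helicase, was 5.02-fold lower at P0 than at E12, and Rrm2, of ribonucleotide reductase, was 4.27-fold lower at E12 than at E9.5. Plk1, a mitotic kinase, was 4.19-fold lower at E12 than at E9.5, and Kif20a, a mitotic kinesin, averaged 183 at P0, with 1 array at the floor, against 824 at E12, and was called lower.

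Other RNA-processing genes were counted the same way for P0 against E9.5, where 15.9% of all probe sets tested were called lower and 12.1% higher. Among these lists, the share called lower was nearest to that background for SR-related proteins and SR kinases, at 22.7%. The alternative settings were not tried for these lists, for the cell cycle list or for the genes named from them. Other spliceosome subunits were called lower for 19 of 49 probe sets and higher for 1, 3′-end processing factors lower for 10 of 20, exon junction and export factors lower for 6 of 10, SR-related proteins and SR kinases lower for 5 of 22, and other RNA-binding proteins lower for 17 of 50 and higher for 3. At E12 against E9.5, 5 of 22 SR-related and SR kinase probe sets were called higher and 1 lower (9.7% and 4.41% of all probe sets), with a median log2 change of -0.22 and 12 of 22 fitted below 0. Among them Clk1 and Clk4, kinases that phosphorylate SR proteins, were 2.69-fold and 2.39-fold higher at E12, and Clk4 was 1.87-fold lower at P0 than at E12. Pnn, a nuclear speckle protein, was 2.03-fold lower at P0 than at E12. Igf2bp1, a fetal mRNA-binding protein, averaged 121 ± 15.4 at P0 against 1676 ± 59.5 at E12 (SD, n = 3 each), 14-fold lower (adjusted p = 3.8e-09, limma), and was 2.45-fold lower at E12 than at E9.5.
Syncrip, an hnRNP relative, was 2.73-fold lower at E12 than at E9.5, and Zfp36, which promotes decay of AU-rich mRNAs, was 3.11-fold higher at P0 than at E12. Cdc5l, of the Prp19 complex, was 1.76-fold higher at E12 than at E9.5. So was Naa38 (2.21-fold, with overlapping arrays), an N-acetyltransferase subunit listed here only through an old Lsm alias. The cap-binding Ncbp2 and the RNA-methylation cofactor Wtap were 2.34-fold and 2.25-fold lower at P0 than at E12, with overlapping arrays for Wtap. Pcf11, a termination factor, was 3.57-fold higher at E12 than at E9.5 and 3.1-fold lower at P0 than at E12. Cpsf2, of the cleavage complex, was 3.82-fold lower at P0 than at E12, as was the export receptor Nxf1 (1.69-fold, with overlapping arrays). Cstf1 and Thoc3 were 1.55-fold and 1.67-fold lower at E12 than at E9.5.

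Genes with several probe sets were not uniform. In P0 against E9.5, of 22 genes with at least 2 tested probe sets, 5 had all of them called the same way (Ptbp2, Srsf1, Srsf10, Srsf2 and Srsf3), 14 had some called and 3 had none. No gene had probe sets called in opposite directions, and 5 had fitted changes of differing sign.

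**Figure D5:**
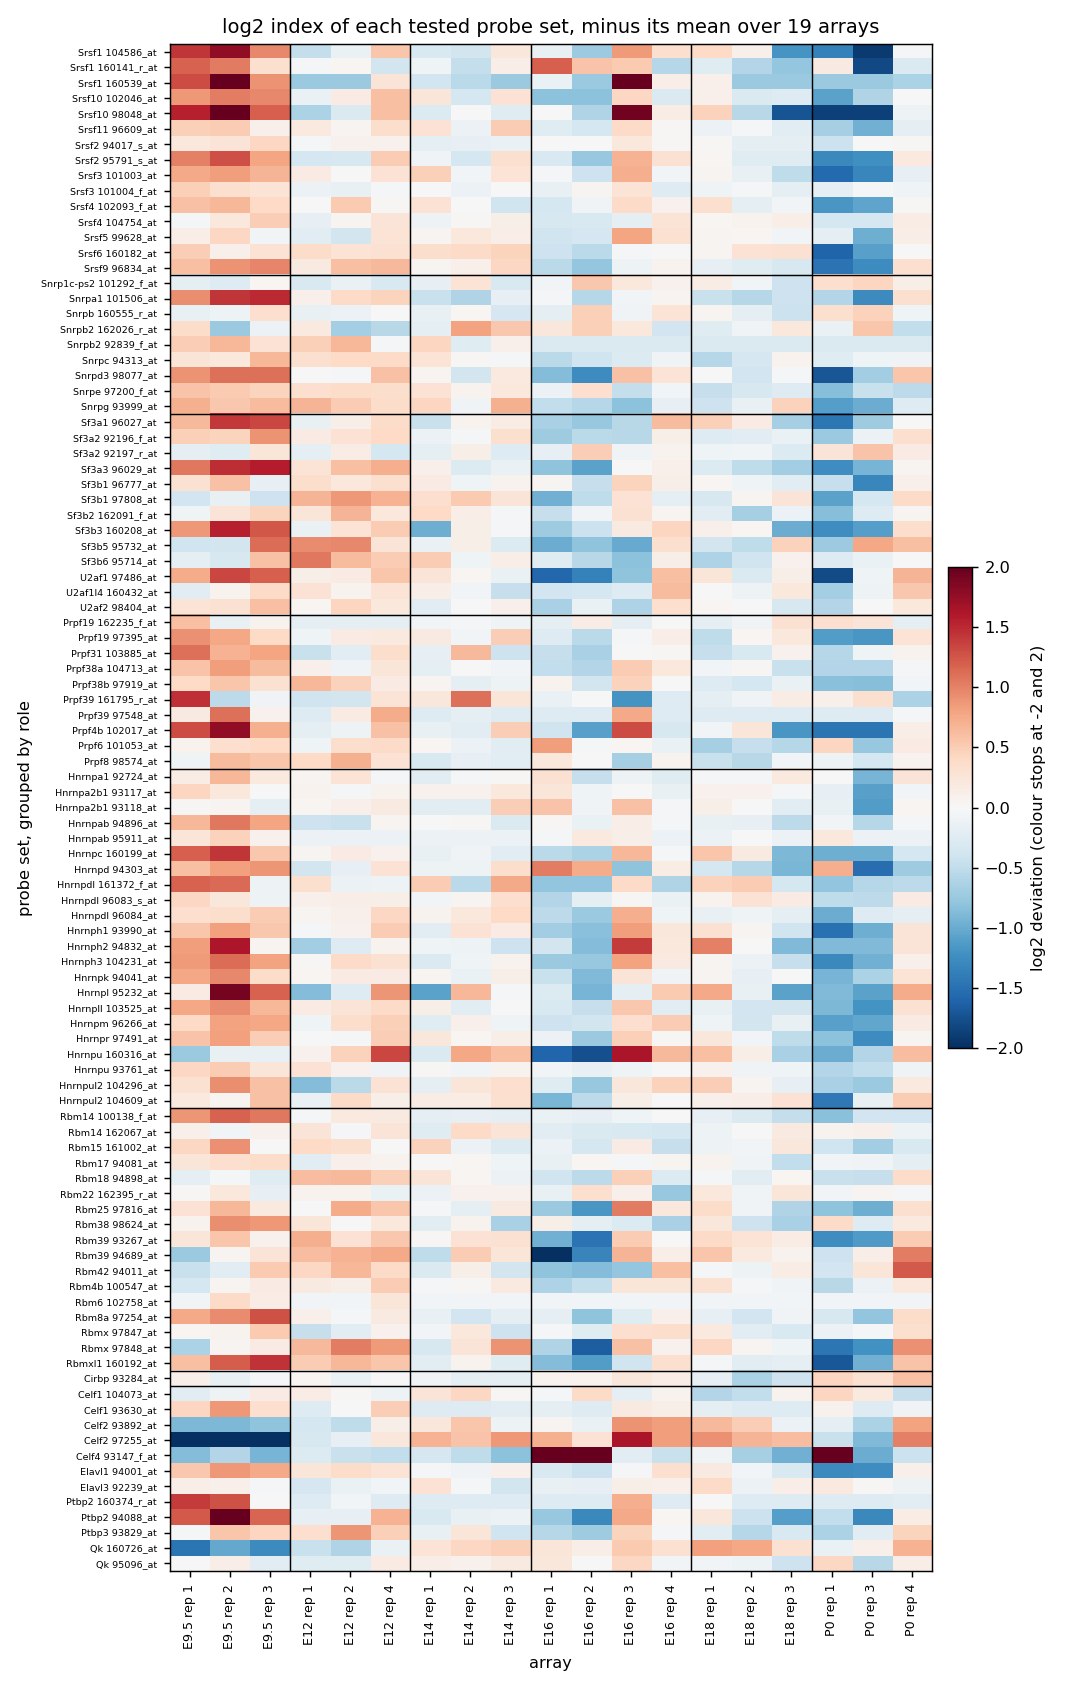
The log2 index of each of the 99 tested probe sets minus its own mean over the 19 arrays, with probe sets as rows grouped by role and arrays as columns in order of stage. Red is above and blue below the probe set's mean, and colours stop at -2 and 2. The E9.5 columns are mostly red, and replicates 1 and 3 of P0 and 1 and 2 of E16 are mostly blue, whereas replicate 4 of P0 is not.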

How the data were processed

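Affymetrix 1-colour arrays of 19 samples in 6 stages were analysed from the values the authors deposited. Per the labels' protocols, scans were made with MAS software, and dChip gave a smoothing-spline normalization, probe sensitivities from 18 arrays and a model-based expression index, so that the deposited unit is a linear intensity, already normalized between arrays. No depth applies to arrays, and their number limits the precision.

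Values were floored at the 25th percentile (68.5), taken to log2, and kept where above the floor on at least 3 arrays. limma 3.58.1 in R 4.3.3 fitted 1 mean per stage (13 residual degrees of freedom), with Benjamini-Hochberg adjustment over 10414 probe sets and a threshold of 0.05. Tested on simulated data for P0 against E12 over 10414 probe sets, the fit called 56 of 100 probe sets changed by 1 log2 unit and 94 of 100 changed by 2, with 9 false calls. The simulated noise was normal and independent for every value, with no floor and no shift shared by an array. These counts therefore do not cover errors that come from arrays that stood apart. Genes come from the platform annotation; 396 probe sets with several symbols were left out, 10 of them with a member's name, and so was Rbm3, which the naming rule had listed.

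Genes named are the 10 largest rises and falls among called members with stages that do not overlap (5 in the neighbouring-stage comparisons), the widest-ranging F-test calls of each role group, Cirbp, genes with several probe sets, and 2 genes per pathway list in E12 against E9.5 and P0 against E12; Celf4, Elavl3, Hnrnpa1, Hnrnpk, Prpf6, Prpf8, Snrp1c-ps2, Snrpc and U2af1 were named after their values were seen. Members and lists were chosen with earlier results of these data known. Comparisons share stages and are not independent. Promoter windows are RefSeq's; protein sequences were not used here. The alternatives tried were other floors, no floor, no filter, quantile normalization, lot and replicate blocks, the GAPDH covariate, array weights, fewer arrays and fewer stages.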

Additional observations from a re-analysis of the deposited data

Results flagged for a closer look

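At E16, the only stage with 4 arrays, 10 of 99 members had 1 array set apart from the other 3 by more than Dixon's 95% limit of 0.829 for the gap over the range, where chance gives about 1 in 20. In all 10 the array apart was the highest. The ratio was taken on the linear index, which spreads high values more than low ones, whereas the 1 in 20 holds for independent normal values. It was computed for members only. The count therefore has no share over all probe sets beside it and is not shown to be particular to the members. Replicate 3 stood apart for Prpf4b (0.833), Srsf1 probe set 160539_at (0.834), Srsf10 probe set 98048_at (0.858) and Srsf2 probe set 94017_s_at (0.956). Replicate 4 stood apart for Rbm42 (0.962), Sf3a1 (0.907), Sf3a2 probe set 92196_f_at (0.841), Sf3b5 (0.904) and U2af1l4 (0.918). Replicate 1 stood apart for Prpf6 (0.872). Srsf10 probe set 98048_at, for example, read 953 in replicate 3 against 250, 165 and 277 in the others, and Rbm42 read 717 in replicate 4 against 271, 260 and 277. Replicates 3 and 4 had GAPDH 3′/5′ ratios of 4.26 and 3.84, against 5.8 and 9.12 in replicates 1 and 2.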

How the results depend on the processing

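Over 65 tested values of genes named by the rule and 1097 recomputed values, 886 kept their side of the threshold, 210 lost it, 1 gained it and none turned sign; 15 never lost it. Outside that set, 5 of the 55 members called in P0 against E9.5 turned sign with the GAPDH covariate (U2af1 to 0.18, Hnrnph1 to 0.12, Snrpd3 to 0.13, Hnrnpul2 probe set 104296_at to 0.31 and Hnrnpdl probe set 96084_at to 0.05). Counts of called members moved more. They are given without the share of all probe sets called under the same setting. They therefore do not show whether the members moved more than other probe sets. Array weights gave 39 in E12 against E9.5, 8 in E14 against E12, 7 in E16 against E14, 12 in E18 against E16, 18 in P0 against E18, 45 in P0 against E12, 76 over 6 stages and 54 over the 5 nerve stages. Quantile normalization gave 26, 1 and 2 in E12 against E9.5, E14 against E12 and P0 against E18. The GAPDH covariate, which partly follows stage, gave 10 in P0 against E9.5 (4 lower, 6 higher, against 52 lower, 3 higher), 4 in P0 against E12, 2 in E14 against E12 and 19 over 6 stages. Without the 4 arrays that stood apart, an alternative chosen after seeing the data, counts were 12, 2, 27 and 2 in P0 against E9.5, P0 against E12, E12 against E9.5 and E14 against E12. Without the lot 1 arrays of E16 and P0 they were 18 in E12 against E9.5, 0 in P0 against E18, 8 in P0 against E12 and 3 over the nerve stages. A fit of only the 2 stages compared, with fewer arrays behind the spread, gave 17 in E12 against E9.5, 0 in P0 against E18, 1 in P0 against E12 and 20 in P0 against E9.5. A floor at the 40th percentile and no filter each gave 26 over 6 stages. Where the arrays left out came from stages not compared, the fitted changes stayed the same and only the estimate of the spread moved. Except there and in the fit of 2 stages, the cause was not tested.

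Leaving out 1 array at a time gave 4 to 9 in E12 against E9.5, 0 to 1 in E16 against E14, 0 to 13 in P0 against E18, 6 to 43 in P0 against E12 and 40 to 63 in P0 against E9.5, and 0 in E14 against E12 and E18 against E16. In the 3 P0 comparisons the highest count came without P0 replicate 4, and in E12 against E9.5 the count was 6 without E9.5 replicate 1 and 4 without E9.5 replicate 2 or E12 replicate 1 or 2. The replicate block gave 17 in E12 against E9.5 and 1 in E14 against E12, and the lot block, nearly the same as the replicate block, gave 17 and 1. Arrays of the same replicate number in different stages had a mean correlation of deviations of 0.022 over 38 pairs (-0.38 to 0.71). For different numbers it was -0.0077 over 112 pairs (-0.67 to 0.47). The ranges are wide beside these means, so they do not show whether the numbers pair the samples. Of the calls in P0 against E9.5, 4 of 55 held in every alternative that kept the probe set (Celf2, Qk, Rbm14 and Snrpe). So did 3 of 11 in E12 against E9.5 (Celf2, Hnrnpab and Rbm14). In P0 against E12 it was 1 of 17 (Snrpe). Leaving out probe sets with identifiers ending in _f_at, _r_at or _s_at was also tried. Protein sequence features were not computed here. Members dim in the late arrays have only lower bounds.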
